A study of Mus musculus with 12 samples.

Results

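The hematopoietic cluster cells that carry an active Ly6a-GFP reporter, here GFP+ HC, were set against each of the other 3 cell populations sorted from the same arteries. They gave 3 of the 12 libraries. The genes described are those whose lowest value in the 3 GFP+ HC libraries lay above all 9 other values, or whose highest value lay below all 9. They were 695 and 333 of the 33531 genes in the table, which is 3.18% and 1.52% of the 21877 genes above 0 in any library. Since measured values picked these genes, their separation is a description and carries no test. The 4 populations were GFP+ HC, GFP- HC, GFP+ arterial endothelial cells (GFP+ EC) and GFP- EC, each as 3 libraries from pools of cells. All came from the dorsal aorta, umbilical and vitelline arteries of 122 embryos at embryonic day 11.5, on a B6129S background. Every embryo carried the Ly6a-GFP transgene, including those that gave the GFP- cells. HC were sorted as CD31+ CD144+ ESAM+ c-Kit+ and EC by the same 3 endothelial proteins without c-Kit. GFP+ HC were the smallest population, with 53000 sorted cells against 413000 for GFP- HC, 377000 for GFP+ EC and 791000 for GFP- EC. The labels do not give the number of cells in each pool.

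Blood stem cells of the mouse embryo arise from specialised endothelium of the large arteries, by a change of fate in which flat endothelial cells round up into clusters that still show endothelial proteins on their surface. The transcription factor Runx1 starts this change, and Gfi1 and its relative Gfi1b then silence endothelial genes. Only a small share of cluster cells can found an adult blood system, and the Ly6a reporter, which follows the gene for the stem cell antigen Sca-1, marks a fraction that is richer in such cells. The marker genes given for the population bear on this step: Cd27 encodes a receptor of the TNF receptor superfamily, Gfi1 a zinc finger repressor, Myb a transcription factor needed for definitive blood, Gpr56 an adhesion G-protein-coupled receptor and Spn the sialophorin CD43.

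The 250 bases before the start site are shown for 3 of the markers, Gfi1, Gpr56 and Cd27, the last being the gene that gives the series its title. The windows of Gfi1 and Gpr56 held a match to a searched motif, and that of Cd27 held none. Windows of Myb and Spn are not given here. Sequences are from RefSeq on GRCm38.p6, on the gene's own strand, and the FPKM values rest on mm9. RefSeq lists Gpr56 as Adgrg1, and for Gfi1 and Gpr56, which have 2 listed starts each, the window of the start farthest upstream is given. Capitals mark AACTG, the core of a Myb site, or its reverse complement CAGTT. The windows lie at chr5:107725806-107726055 (minus strand), chr8:94976859-94977108 (plus strand) and chr6:125237028-125237277 (minus strand).
Gfi1: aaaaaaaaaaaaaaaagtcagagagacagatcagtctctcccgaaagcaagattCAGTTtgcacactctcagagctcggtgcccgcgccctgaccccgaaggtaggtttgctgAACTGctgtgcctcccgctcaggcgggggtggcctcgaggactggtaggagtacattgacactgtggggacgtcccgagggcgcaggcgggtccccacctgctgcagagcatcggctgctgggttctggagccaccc
Gpr56: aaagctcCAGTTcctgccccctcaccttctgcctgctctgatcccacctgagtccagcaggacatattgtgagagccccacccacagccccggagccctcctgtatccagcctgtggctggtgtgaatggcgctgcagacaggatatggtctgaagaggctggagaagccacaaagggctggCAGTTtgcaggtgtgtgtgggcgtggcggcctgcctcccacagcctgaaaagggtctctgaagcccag
Cd27: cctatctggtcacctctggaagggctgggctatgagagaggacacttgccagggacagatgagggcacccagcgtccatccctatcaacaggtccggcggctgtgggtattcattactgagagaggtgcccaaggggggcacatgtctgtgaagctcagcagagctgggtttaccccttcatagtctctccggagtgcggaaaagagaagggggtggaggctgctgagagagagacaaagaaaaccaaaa
Gfi1 and Gpr56 had 2 matches each. They begin 196 and 137 bases before the start in Gfi1, and 243 and 68 bases before it in Gpr56. The motif or its complement is common: 39.1% of the 32851 start windows in the RefSeq table held AACTG. The Runx core TGTGGT was in 14% of all windows. The GATA motif, searched as AGATAA, was in 9.99% of them, and the Ets motif, searched as CCGGAA, in 12%. All were searched on both strands, and these last 3 motifs were in none of the windows shown. No motif contains another. A match is a run of letters and was not tested as a binding site.

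Levels are FPKM, fragments scaled to transcript length and to the mapped fragments of the library. They hold no read numbers, and sequencing depth is therefore unknown. The summed FPKM of a library ranged between 555675 and 691948, and 12147 to 12779 genes reached FPKM 1. Taken across tested genes, which are no replicates, GFP+ HC libraries correlated at 0.958 to 0.972 on the log2(FPKM + 1) scale, and libraries of different populations at 0.899 to 0.968. RNA of macrophages and red cells was present in unequal amounts. The summed FPKM of 25 macrophage genes was 1546, 678 and 2998 in GFP+ HC, against 1787, 730 and 1435 in GFP- HC, with 198 to 352 in GFP+ EC and 225 to 313 in GFP- EC. In each population replicate 2 had the lowest macrophage sum. GFP+ HC replicate 3 stood apart with the highest macrophage sum and the highest sum of interferon response genes (1832, against 1054 and 1005 in the other GFP+ HC). The summed FPKM of 32 erythroid genes was 1036 to 1395 in GFP+ HC, against 6672 to 10100 in GFP- HC, with 1126 to 2629 in GFP+ EC and 3566 to 8091 in GFP- EC. In bulk RNA, a different share of cells of a type and a different amount of RNA per cell cannot be told apart.

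Differences below are in mean log2(FPKM + 1) ± SE, a scale that shrinks the change of genes with low values. They come from 1 limma model over the 13278 genes that reached FPKM 1 in 3 or more libraries. The p-values were corrected over all of these genes (Benjamini-Hochberg), with a threshold of 0.05. Against GFP- HC, 396 genes were higher in GFP+ HC (2.98%) and 170 lower (1.28%). Against GFP+ EC, 1090 were higher (8.21%) and 808 lower (6.09%), and against GFP- EC, 1696 were higher (12.8%) and 1175 lower (8.85%). The last pair of counts became 3040 and 544 when libraries were scaled to an equal sum. That scaling put the median difference of all tested genes from GFP- EC at 0.164, against 0.002 as deposited, and single differences in that comparison can be read against this shift. Leaving out 1 library took the count of genes higher than in GFP- HC to 241 without GFP+ HC replicate 3, and to 250, 260 and 231 without GFP- HC replicate 1, 2 or 3. The count of genes lower than in GFP- HC became 104 and 96 without GFP+ HC replicate 1 or 3 and 99, 101 and 90 without GFP- HC replicate 1, 2 or 3. The 1090 became 719 without GFP+ EC replicate 1, and the 1175 became 741 without GFP- EC replicate 1.

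Of the genes tested, 578 lay above all 9 other libraries in GFP+ HC (4.35%) and 313 below all 9 (2.36%). The same rule applied to the other populations gave 138 genes above (1.04%) and 164 below (1.24%) for GFP- HC. It gave 764 (5.75%) and 609 (4.59%) for GFP+ EC, and 472 (3.55%) and 480 (3.62%) for GFP- EC. In these deposited values GFP- HC had the fewest genes in either direction and GFP+ EC the most. The balance within GFP+ HC turned with the scaling: 678 genes lay above and 179 below with an equal sum, 437 and 421 with an equal upper quartile, and 437 and 503 after quantile normalization. Of the 695 genes above all 9, 117 did not reach the expression filter and 25 passed it only through the GFP+ HC libraries. The gap between the lowest GFP+ HC value and the highest of the other 9 had a median of 0.10 on the log2 scale among the 578 genes, was 1 or more in 21 and was largest in Myb (2.35). Most of these genes therefore stood only slightly outside the range of the other cells. Among the 578 genes the highest of the 3 GFP+ HC values was in replicate 3 for 303 genes, in replicate 2 for 163 and in replicate 1 for 112. Over all 13278 genes tested the highest was in replicate 3 for 5196, in replicate 2 for 3874 and in replicate 1 for 4208. Replicate 3 had the lowest value for 170 of the 313 genes below. The genes above all 9 numbered 1143 without GFP+ HC replicate 2 and 973 without replicate 3. The genes below all 9 numbered 635, 550 and 568 without GFP+ HC replicate 1, 2 or 3, fewer libraries being an easier condition.

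**Figure D1:**
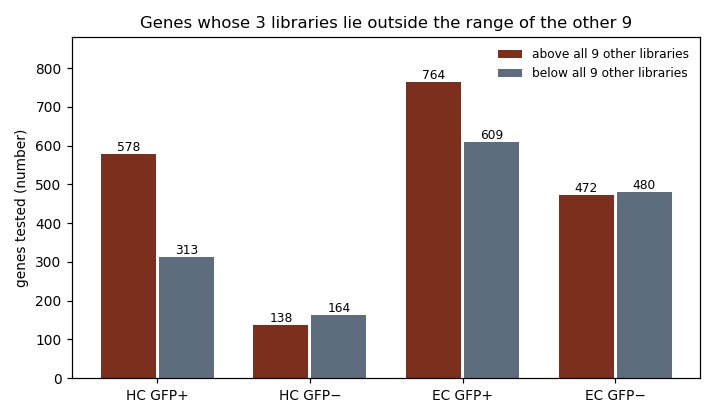
Number of tested genes whose 3 libraries all lie above (dark red) or all below (grey) the other 9 libraries, for each of the 4 populations. In the deposited values GFP+ HC have 578 genes above and 313 below, and GFP- HC 138 and 164; after quantile normalization GFP+ HC have 437 above and 503 below.

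Just inside the rule, the gap was near 0. Rhno1, which encodes a DNA damage checkpoint protein, had 43, 41.4 and 42.1 FPKM in GFP+ HC, against 41.4, 36.9 and 32.5 in GFP- HC, with 35.3, 29.2 and 33.3 in GFP+ EC and 30.6, 40 and 31.7 in GFP- EC. Just outside it was Rbbp7, a histone-binding subunit of chromatin complexes, with 151, 162 and 153 FPKM in GFP+ HC, against 148, 149 and 151 in GFP- HC, with 129, 143 and 136 in GFP+ EC and 139.6, 133 and 146 in GFP- EC. On the lower side the nearest inside was Mybl2, a cell cycle relative of Myb, with 14.1, 14.6 and 13.5 FPKM in GFP+ HC, against 19.4, 18.3 and 19.1 in GFP- HC, with 14.6, 18.2 and 15.3 in GFP+ EC and 15.2, 22.8 and 17.4 in GFP- EC. The genes nearest outside on that side, the small RNA genes Rny1, Rnu12 and Vaultrc5, were listed at 0 in all GFP+ HC libraries and in others too.

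To ask which genes set GFP+ HC apart from every other population in one test, the largest of a gene's 3 p-values was adjusted over all genes tested where its 3 differences had 1 sign. By this test against each population 57 genes were higher in GFP+ HC (0.429%) and 4 were lower (0.0301%). All 61 also met the separation rule, which uses the same values, so nothing is read from that overlap. Of the 57, 13 passed the expression filter only through the GFP+ HC libraries. The count of 57 was 27, 17 and 24 without GFP+ HC replicate 1, 2 or 3. It was 34, 27 and 28 without GFP- HC replicate 1, 2 or 3, and 26, 37 and 36 without GFP+ EC replicate 1, 2 or 3. It was 15 with a pseudocount of 0.1 and 11 among genes with mean FPKM of 5 or more, and all of those 15 and of those 11 were among the 57.

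**Figure D2:**
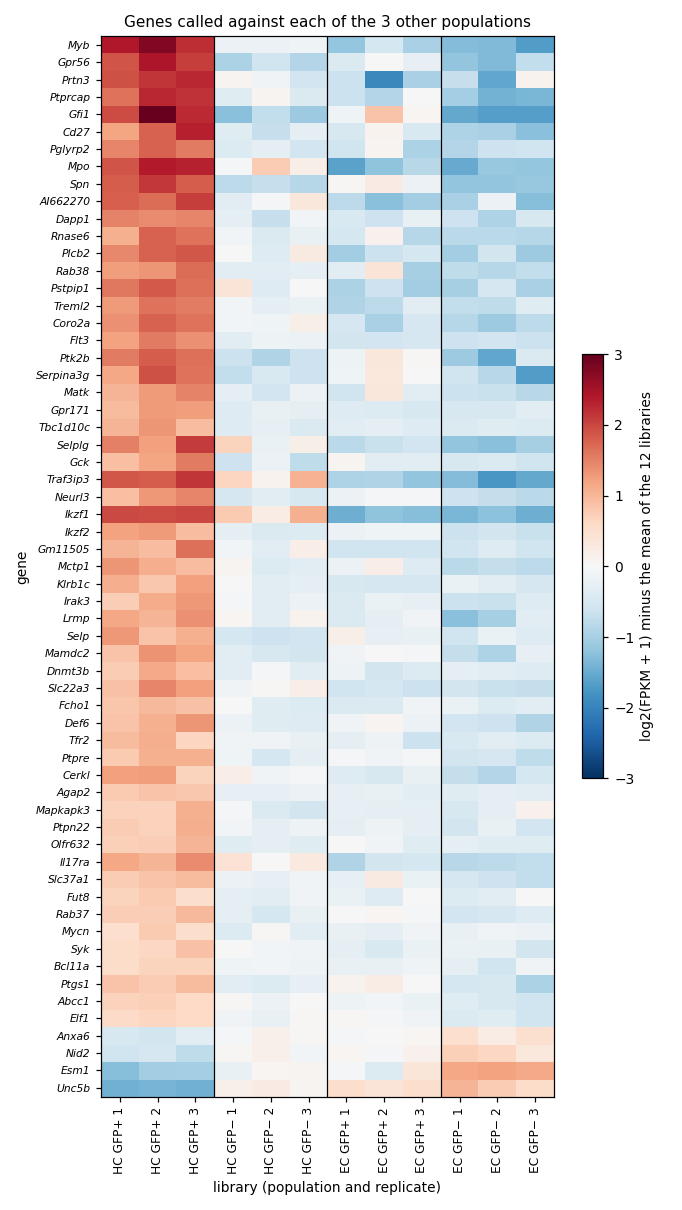
The 57 genes called higher and 4 called lower in GFP+ HC than in each other population, by library. Colour gives log2(FPKM + 1) minus the gene's mean over the 12 libraries, and genes run from the largest smallest difference (Myb) to the most negative (Unc5b). The first 3 columns, GFP+ HC, are the only block that is red for every gene of the upper part.

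All 5 marker genes were among the 57. By the smallest of the 3 differences Myb and Gpr56 came first, followed by Prtn3, Ptprcap, Gfi1 and Cd27, with Spn further down. Myb had 16.9, 22.1 and 14.6 FPKM in GFP+ HC, against 1.99, 1.96 and 2.05 in GFP- HC, with 0.513, 1.34 and 0.72 in GFP+ EC and 0.37, 0.337 and 0.0532 in GFP- EC. The 3 GFP+ HC libraries lay far above all others, GFP- HC came next and GFP- EC were lowest. The difference of GFP+ HC was log2 2.63 ± 0.20 over GFP- HC, 3.35 ± 0.20 over GFP+ EC and 3.90 ± 0.20 over GFP- EC (adjusted p = 0.000259 against each). Gpr56 had 53.5, 77.4 and 60.3 FPKM in GFP+ HC, against 6.57, 8.74 and 6.9 in GFP- HC, with 9.8, 13.6 and 11.3 in GFP+ EC and 5.43, 4.82 and 7.75 in GFP- EC. Every population expressed it, and GFP+ HC were again separate, with GFP+ EC next. Gpr56 differed by log2 2.94 ± 0.19 over GFP- HC, 2.36 ± 0.19 over GFP+ EC and 3.22 ± 0.19 over GFP- EC (adjusted p = 0.000259). Spn had 9.08, 11.5 and 9.01 FPKM in GFP+ HC, against 0.667, 0.772 and 0.58 in GFP- HC, with 1.93, 2.37 and 1.52 in GFP+ EC and 0.255, 0.25 and 0.294 in GFP- EC. Here too GFP+ EC stood between GFP+ HC and both GFP- populations. Differences were log2 2.69 ± 0.15 over GFP- HC, 1.89 ± 0.15 over GFP+ EC and 3.09 ± 0.15 over GFP- EC (adjusted p = 0.000259). Calls for these 3 genes held under every alternative run that tested them, each single library left out included. Spn did not reach the filter of mean FPKM of 5 or more and was not tested in that run.

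Gfi1 and Cd27 were separated with a wider spread among pools. Gfi1 had 11.3, 24.2 and 13.8 FPKM in GFP+ HC, against 0.315, 0.901 and 0.481 in GFP- HC, with 1.87, 4.69 and 2.3 in GFP+ EC and 0.0887, 0 and 0 in GFP- EC. GFP+ EC held an intermediate level, whereas 2 of the GFP- EC libraries were listed at 0. The differences of Gfi1 were log2 3.42 ± 0.30 over GFP- HC, 2.14 ± 0.30 over GFP+ EC and 4.01 ± 0.30 over GFP- EC (adjusted p = 0.0102). Cd27 had 4.46, 7.14 and 11 FPKM in GFP+ HC, against 0.865, 0.475 and 0.974 in GFP- HC, with 0.707, 1.59 and 0.753 in GFP+ EC and 0.256, 0.226 and 0 in GFP- EC. The GFP+ HC libraries differed among themselves by more than the other populations did, and GFP+ EC came next. The differences of Cd27 were log2 2.20 ± 0.28 over GFP- HC, 2.03 ± 0.28 over GFP+ EC and 2.81 ± 0.28 over GFP- EC (adjusted p = 0.00932). For both genes the call against each population ended with a pseudocount of 0.1 and without GFP+ EC replicate 1, and for Cd27 also without GFP+ HC replicate 2. In GFP+ HC replicate 2, the one of the 3 with the least macrophage RNA, Gfi1, Myb, Gpr56 and Spn were at their highest and Cd27 was in the middle of the 3. A further limma test took the step from GFP- to GFP+ cells in HC minus the same step in EC. It called 25 genes positive (0.188%) and 45 negative (0.339%). The sign is not the size of the step: Unc5b was called negative with steps of -1.574 in HC and -0.289 in EC. Myb, Gpr56 and Spn were among the 25, and Gfi1 and Cd27 were not called.

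**Figure D3:**
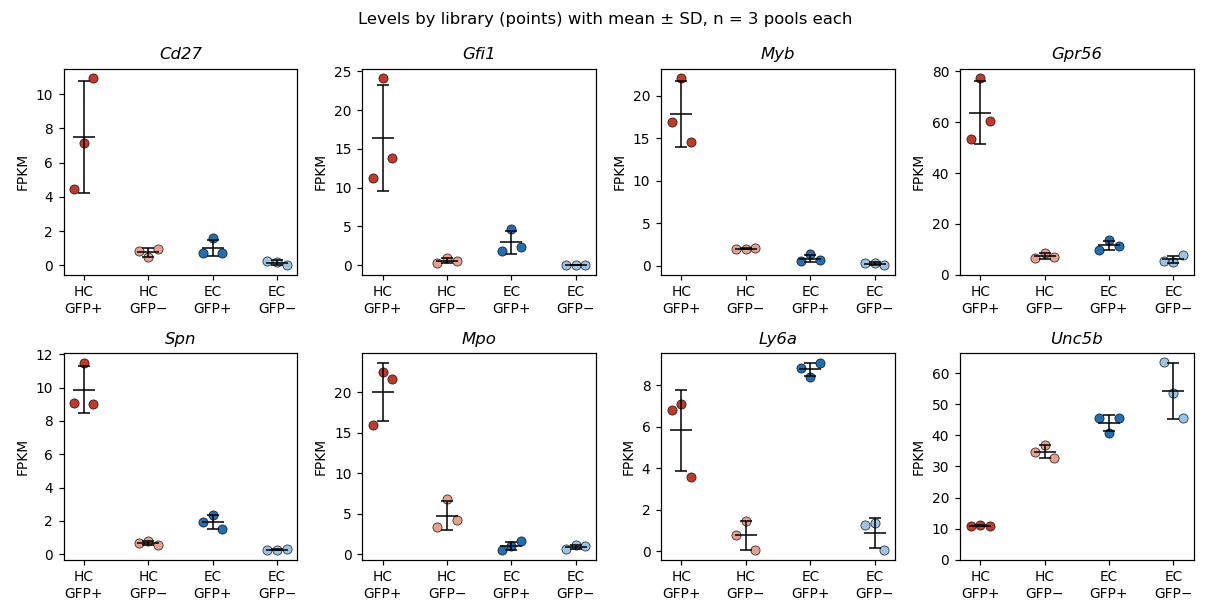
FPKM of the 5 marker genes, of Mpo, of the reporter's own gene Ly6a and of Unc5b in each library (points), with the mean and SD of the 3 libraries of a population (bars). The markers and Mpo are highest in GFP+ HC, Ly6a is highest in GFP+ EC, and Unc5b is lowest in GFP+ HC.

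The sort proteins were a check of the gates and not results. Ly6a had 6.83, 7.09 and 3.57 FPKM in GFP+ HC, against 0.778, 1.47 and 0.0538 in GFP- HC, with 8.82, 8.42 and 9.05 in GFP+ EC and 1.26, 1.37 and 0.0585 in GFP- EC. The reporter's own gene was thus higher in GFP+ HC than in both GFP- populations. Every GFP+ EC library lay above GFP+ HC, without passing the test (-0.56, adjusted p = 0.36). Kit, the stem cell factor receptor of the gate, had 34.2, 39.2 and 33.2 FPKM in GFP+ HC, against 19.2, 25.8 and 19.1 in GFP- HC, with 13.3, 14.5 and 14.2 in GFP+ EC and 12.6, 17.6 and 18.6 in GFP- EC. Its highest values were in GFP+ HC, yet Kit RNA was well above 0 in the EC that were sorted as lacking the protein. It was not called against each population (adjusted p = 0.0809). Pecam1, which encodes CD31, had 255, 283 and 272 FPKM in GFP+ HC, Cdh5 (VE-cadherin, CD144) had 454, 489 and 429.5 FPKM and Esam had 166, 186 and 174 FPKM. All 3 genes lay below every GFP+ EC library in GFP+ HC and overlapped GFP- HC. Ptprc, the leukocyte antigen CD45, had 9.75, 7.97 and 13.2 FPKM in GFP+ HC, against 6.93, 2.59 and 7.07 in GFP- HC, with 0.292, 0.506 and 0.624 in GFP+ EC and 0.061, 0.216 and 0 in GFP- EC. It did not pass against GFP- HC (adjusted p = 0.152).

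Other genes with the largest differences encode signalling proteins of blood cells. Ptprcap, which encodes a protein that binds CD45, had 10.2, 16.3 and 15.2 FPKM in GFP+ HC, against 1.79, 2.8 and 1.68 in GFP- HC, with 1.32, 0.949 and 2.59 in GFP+ EC and 0.784, 0.361 and 0.394 in GFP- EC (adjusted p = 0.00317 against each). Dapp1, an adaptor that binds membrane phosphoinositides, had 19.4, 18.3 and 18.9 FPKM in GFP+ HC, against 4.88, 3.46 and 5.84 in GFP- HC, with 4.27, 3.72 and 5.22 in GFP+ EC and 3.66, 2.79 and 4.18 in GFP- EC (adjusted p = 0.00114). The 3 GFP+ HC values of Dapp1 were nearly equal, and the other 3 populations overlapped one another. Treml2, a receptor of the TREM family, had 5.8, 7.54 and 7.09 FPKM in GFP+ HC, against 1.64, 1.26 and 1.43 in GFP- HC, with 0.484, 0.614 and 1.25 in GFP+ EC and 0.665, 0.641 and 1.16 in GFP- EC (adjusted p = 0.00317). Calls of these 3 genes held under every alternative run that tested them. Of the 3, only Dapp1 reached the filter of mean FPKM of 5 or more, so Ptprcap and Treml2 were not tested in that run. Coro2a, of the actin-binding coronins, averaged 5.87 ± 0.912 FPKM in GFP+ HC, against 1.25 ± 0.259 in GFP- HC, with 0.453 ± 0.262 in GFP+ EC and 0.216 ± 0.129 in GFP- EC (SD, n = 3 each, here and below). Plcb2, a phospholipase C that acts below G-protein-coupled receptors, averaged 7.44 ± 1.25 FPKM in GFP+ HC, against 1.55 ± 0.563 in GFP- HC, with 0.568 ± 0.28 in GFP+ EC and 0.416 ± 0.304 in GFP- EC. Pstpip1, an adaptor of the actin cytoskeleton, averaged 8.29 ± 0.87 FPKM in GFP+ HC, against 1.95 ± 0.792 in GFP- HC, with 0.573 ± 0.245 in GFP+ EC and 0.642 ± 0.338 in GFP- EC. The calls of Coro2a, Plcb2 and Pstpip1 ended with a pseudocount of 0.1, and those of Plcb2 and Pstpip1 also without GFP+ HC replicate 2.

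The kinase gene Ptk2b had 10.8, 13.1 and 11.6 FPKM in GFP+ HC, against 1.55, 1.16 and 1.6 in GFP- HC, with 2.62, 4.12 and 3.14 in GFP+ EC and 0.895, 0.36 and 1.96 in GFP- EC. In this gene GFP+ EC were the next population. The differences were log2 2.40 ± 0.25 over GFP- HC, 1.59 ± 0.25 over GFP+ EC and 2.70 ± 0.25 over GFP- EC, smallest against GFP+ EC (adjusted p = 0.0183). Rab38, a small GTPase of lysosome-related organelles, averaged 8.15 ± 1.5 FPKM in GFP+ HC, against 1.71 ± 0.0469 in GFP- HC, with 1.95 ± 1.4 in GFP+ EC and 0.963 ± 0.0814 in GFP- EC. Both calls ended with a pseudocount of 0.1. That of Ptk2b also ended without any 1 of the GFP+ HC libraries or without GFP+ EC replicate 1 or 3, and that of Rab38 without any 1 of the HC libraries or without GFP+ EC replicate 1. Among the 57 genes, 5 chosen after their values were seen show other functions. Dnmt3b, a de novo DNA methyltransferase, averaged 26.5 FPKM in GFP+ HC, against 11.3 in GFP- HC, with 10.2 in GFP+ EC and 10.4 in GFP- EC. Mycn, a transcription factor of the Myc family, averaged 38.7 FPKM in GFP+ HC, against 21.3 in GFP- HC, with 21.8 in GFP+ EC and 22.3 in GFP- EC. Bcl11a, a zinc finger factor of lymphoid and stem cells, averaged 13.1 FPKM in GFP+ HC, against 7.37 in GFP- HC, with 7.02 in GFP+ EC and 6.38 in GFP- EC. Elf1, an Ets factor, averaged 16.3 FPKM in GFP+ HC, against 9.62 in GFP- HC, with 9.99 in GFP+ EC and 7.24 in GFP- EC. Neurl3, a ubiquitin ligase of the neuralized family, averaged 31.3 FPKM in GFP+ HC, against 9.13 in GFP- HC, with 11.9 in GFP+ EC and 7.37 in GFP- EC.

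The genes above all 9 differed in which population came next. By mean FPKM the next population was GFP- HC for 363 of the 578 genes, GFP+ EC for 195 and GFP- EC for 20. Over all genes tested, the GFP- HC mean exceeded the GFP+ EC mean for 7657 of 13278. In the limma test of GFP- HC against GFP+ EC, 51 of the 578 were higher in GFP- HC (background 7.95%) and 15 were higher in GFP+ EC (background 7.49%). Myb, Mpo, Ptprcap, Ikzf1 and Flt3 had GFP- HC next, whereas Gpr56, Spn, Cd27, Gfi1 and Ptk2b had GFP+ EC next. Of the 57 genes called against each population, 32 had GFP- HC next, 23 GFP+ EC and 2 GFP- EC. Of the genes matched to RefSeq, 98.9% of 571 above all 9 and 98.1% of 308 below were protein coding, against 94.6% of 12920 genes tested.

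**Figure D4:**
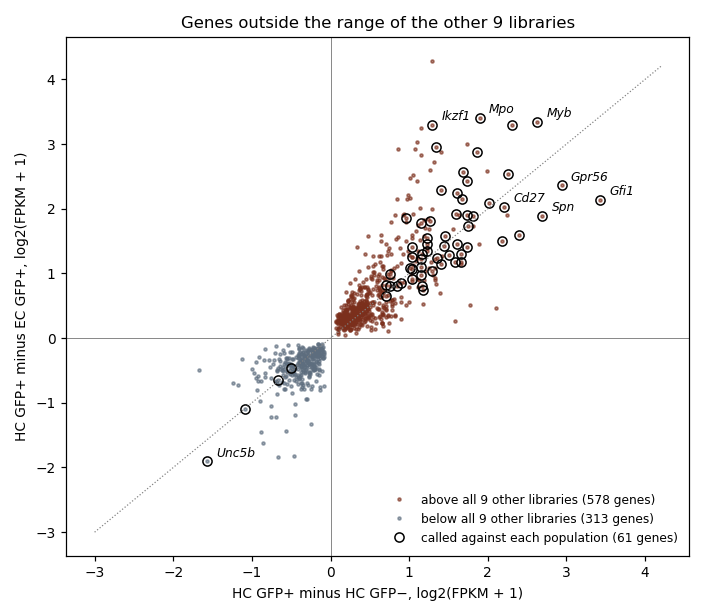
Difference of GFP+ HC from GFP- HC (x axis) and from GFP+ EC (y axis) in log2(FPKM + 1), for the tested genes above (dark red) or below (grey) all 9 other libraries. Circles mark the 61 genes called against each population. Ikzf1, Mpo and Myb lie above the dotted diagonal, where the difference from GFP+ EC is larger, and Gfi1, Gpr56, Cd27 and Spn lie below it. The axes share the GFP+ HC libraries, so the slope of the cloud is no result.

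Transcription factors of stem cells and of the endothelial-to-hematopoietic transition were higher in GFP+ HC in many cases. Of 35 tested, 14 were higher and none lower than in GFP- HC, 11 higher and 3 lower than in GFP+ EC, and 15 higher and 1 lower than in GFP- EC. The median difference of the list was 0.44 from GFP- HC, 0.12 from GFP+ EC and 0.49 from GFP- EC. Over all genes tested it was 0.001, 0.052 and 0.002, and medians below keep this order of comparisons. Of all genes tested, 2.98% were higher and 1.28% lower than in GFP- HC, and 8.21% and 6.09% than in GFP+ EC. Against GFP- EC the shares were 12.8% and 8.85%. Above all 9 lay 4.35%, and below all 9 lay 2.36%. Counts of each list are to be set beside these shares. The lists were chosen with earlier results of these data known, so the counts are a description. The 12 members above all 9 were Bcl11a, Gfi1, Hlf, Hoxa9, Ikzf1, Ikzf2, Myb, Mycn, Nfe2, Runx1, Spi1 and Zfp36l2, and no member was below. Ikzf1, which encodes Ikaros, a regulator of lymphoid fate, had 13.9, 13.7 and 14 FPKM in GFP+ HC, against 5.46, 3.43 and 6.83 in GFP- HC, with 0.36, 0.641 and 0.56 in GFP+ EC and 0.448, 0.594 and 0.363 in GFP- EC. Its GFP- HC libraries stood between GFP+ HC and the EC. Differences of Ikzf1 were log2 1.29 ± 0.19 over GFP- HC, 3.30 ± 0.19 over GFP+ EC and 3.34 ± 0.19 over GFP- EC (adjusted p = 0.0142). The call ended without any 1 of the GFP+ HC libraries and with a pseudocount of 0.1. Its relative Ikzf2 (Helios) had 3.58, 3.8 and 2.78 FPKM in GFP+ HC, against 0.649, 0.458 and 0.497 in GFP- HC, with 0.744, 0.813 and 0.806 in GFP+ EC and 0.271, 0.342 and 0.236 in GFP- EC. All 9 other values of Ikzf2 were under 1 FPKM, so the filter admitted it through GFP+ HC alone and its call (adjusted p = 0.0032 against each) adds no support. Nfe2, a factor of megakaryocytes and red cells, averaged 16 ± 3.75 FPKM in GFP+ HC, against 4.43 ± 0.874 in GFP- HC, with 3.51 ± 0.899 in GFP+ EC and 3.76 ± 2.56 in GFP- EC. Nfe2 was not called against each (adjusted p = 0.0612).

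Surface proteins and cytokine receptors followed. Of 26 stem and progenitor surface genes tested, 12 were higher and 1 lower than in GFP- HC, 13 higher and 4 lower than in GFP+ EC, and 16 higher and 4 lower than in GFP- EC. The medians were 0.65, 0.51 and 1.37. Members above all 9 included Cd27, Cd44, Cd47, Flt3, Gpr56, Itga4, Kit, Ptprc and Spn. Kit encodes the protein of the gate between HC and EC, so its difference from EC is a check of the gate and no result. Kit is also counted among the cytokine receptors and the mast cell genes below. Flt3, a receptor kinase of early progenitors, had 2.68, 3.7 and 3.1 FPKM in GFP+ HC, against 0.254, 0.435 and 0.414 in GFP- HC, with 0.0943, 0.0635 and 0.128 in GFP+ EC and 0.0344, 0.076 and 0.0203 in GFP- EC. It reached FPKM 1 in GFP+ HC alone, so the filter admitted it through them (adjusted p = 0.00137 against each, which ended with a pseudocount of 0.1). Of 37 genes of cytokine receptors and the Jak-Stat pathway, 10 were higher and none lower than in GFP- HC, 14 higher and 2 lower than in GFP+ EC, and 19 higher and none lower than in GFP- EC. Il17ra, a receptor chain for interleukin 17, averaged 6.74 ± 1.12 FPKM in GFP+ HC, against 2.98 ± 0.632 in GFP- HC, with 1.14 ± 0.302 in GFP+ EC and 0.937 ± 0.0736 in GFP- EC (adjusted p = 0.0376 against each). That call ended without any 1 of the HC or GFP+ EC libraries, and without GFP- EC replicate 1 or 2.

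Cd27 was the only one of 23 tested genes of the TNF receptor superfamily and its signalling that lay above all 9, and none lay below. Among all genes tested 4.35% lay above and 2.36% below. The count in this list is near that share, and nothing is read from it. Of these 23 genes 2 were higher than in GFP- HC, 5 higher and 3 lower than in GFP+ EC, and 8 higher and 1 lower than in GFP- EC. Their medians were 0.11, 0.01 and 0.27.

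The longest list was that of leukocyte signalling and cytoskeleton genes, with 25 of 57 in the table above all 9 and none below. Of the 54 tested, 24 lay above, against 4.35% of all genes tested, and 2 of the 54 passed the filter only through the GFP+ HC libraries. The members of this list were chosen with earlier results of these data known, so its share is a description and no test. Of the 54, 15 were higher than in GFP- HC, 45 than in GFP+ EC and 43 than in GFP- EC, where 1 was lower. The medians were 0.68, 1.57 and 1.90. Syk, a tyrosine kinase of immune receptors, had 18.3, 19.3 and 23.2 FPKM in GFP+ HC, against 12.1, 11.3 and 11.2 in GFP- HC, with 9.91, 8.55 and 10.4 in GFP+ EC and 10.5, 10.3 and 7.91 in GFP- EC (adjusted p = 0.027 against each). Selplg, the selectin ligand PSGL-1, had 5.98, 4.72 and 9.48 FPKM in GFP+ HC, against 2.86, 1.11 and 1.74 in GFP- HC, with 0.39, 0.547 and 0.649 in GFP+ EC and 0.0747, 0.0224 and 0.218 in GFP- EC (adjusted p = 0.042). Ptpn22, a tyrosine phosphatase of leukocytes, averaged 1.71 ± 0.425 FPKM in GFP+ HC, against 0.336 ± 0.0975 in GFP- HC, with 0.272 ± 0.0707 in GFP+ EC and 0.105 ± 0.154 in GFP- EC. Like Flt3 and Ikzf2 it passed the filter through GFP+ HC alone. The calls of Syk and Ptpn22 ended without any 1 of the HC libraries. They also ended without GFP+ EC replicate 1 or 3, and for Ptpn22 without GFP+ EC replicate 2 or GFP- EC replicate 1. The call of Selplg ended without any 1 library other than GFP- HC replicate 1, and Selplg and Ptpn22 were at their highest in GFP+ HC replicate 3. Macrophages express many genes of this list. Of 25 macrophage genes, 1 was higher than in GFP- HC, 22 than in GFP+ EC and 24 than in GFP- EC, with none lower. Their medians were 0.37, 3.75 and 4.05. Csf1r, the macrophage growth factor receptor, had 85.8, 26.3 and 164 FPKM in GFP+ HC, against 91.4, 27.6 and 69 in GFP- HC, with 1.92, 1.39 and 3.47 in GFP+ EC and 1.13, 1.21 and 1.46 in GFP- EC. Its levels overlapped between GFP+ and GFP- HC and were lowest in replicate 2 of each. The part of macrophage RNA in the differences between HC and EC was not tested.

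Some of the myeloid granule genes were higher in GFP+ HC. Prtn3, the granule protease proteinase 3, had 13.3, 15.9 and 17.2 FPKM in GFP+ HC, against 3.02, 2.52 and 1.57 in GFP- HC, with 1.44, 0 and 0.942 in GFP+ EC and 1.38, 0.301 and 3.09 in GFP- EC (adjusted p = 0.0358 against each). Leaving out any 1 HC library ended the call, as did leaving out GFP+ EC replicate 1 or 3 or GFP- EC replicate 1. A pseudocount of 0.1 ended it too. Mpo, the myeloperoxidase of the same granules, had 15.9, 22.6 and 21.7 FPKM in GFP+ HC, against 3.37, 6.78 and 4.16 in GFP- HC, with 0.496, 0.976 and 1.57 in GFP+ EC and 0.599, 1.08 and 1.03 in GFP- EC (adjusted p = 0.00754, which ended without GFP+ HC replicate 2 or with a pseudocount of 0.1). Of other granule proteases, Elane had 0.0675, 0.222 and 0 FPKM in GFP+ HC and Ctsg was listed at 0 in all 3. Csf3r, the G-CSF receptor, averaged 10 ± 2.33 FPKM in GFP+ HC, against 4.61 ± 0.332 in GFP- HC, with 2.9 ± 0.713 in GFP+ EC and 1.4 ± 0.745 in GFP- EC. Of 16 granulocyte and monocyte genes tested, 6 were higher than in GFP- HC, 11 than in GFP+ EC, where 1 was lower, and 13 than in GFP- EC. Their medians were 0.90, 1.82 and 2.26. Of the 16, 5 lay above all 9. Srgn, the granule proteoglycan serglycin, had 57.3, 65.8 and 94.2 FPKM in GFP+ HC, against 22.2, 16.8 and 21.4 in GFP- HC, with 44.7, 52.1 and 51.5 in GFP+ EC and 15.1, 9.76 and 16.9 in GFP- EC. GFP+ EC came next, and Srgn was not called against them (adjusted p = 0.137).

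Lymphoid genes gave mixed values. Only 14 of 30 reached the filter, and 3 were higher and 1 lower than in GFP- HC, 6 higher and 1 lower than in GFP+ EC, and 6 higher and 2 lower than in GFP- EC. Over all genes tested the shares were 2.98% higher and 1.28% lower, 8.21% and 6.09%, and 12.8% and 8.85% in this order. Ltb, the lymphotoxin beta chain, had 6.23, 8.53 and 7.69 FPKM in GFP+ HC, against 3.47, 5.58 and 4.39 in GFP- HC, with 1.58, 2.1 and 1.7 in GFP+ EC and 3.22, 3.16 and 4.74 in GFP- EC. Within HC its GFP+ libraries were the higher and within EC the GFP+ libraries were the lower. GFP+ HC passed against both EC populations but not against GFP- HC (adjusted p = 0.0869). Cd79b, a chain of the B cell receptor complex, averaged 9.36 ± 3.22 FPKM in GFP+ HC, against 6.08 ± 1.05 in GFP- HC, with 4.23 ± 0.745 in GFP+ EC and 4.06 ± 0.125 in GFP- EC. The gap to the other libraries was only 0.012 on the log2 scale. Defining lymphoid genes were at or near 0 in GFP+ HC: Dntt and Cd3e were listed at 0 in all 12 libraries and Rag1 had 0.0836, 0.0401 and 0.031 FPKM.

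Of 25 megakaryocyte and platelet genes, 5 were higher and 1 lower than in GFP- HC, 5 higher and 2 lower than in GFP+ EC, and 5 higher and 3 lower than in GFP- EC. Over all genes tested the shares were 2.98% higher and 1.28% lower, 8.21% and 6.09%, and 12.8% and 8.85% in this order. Nfe2 and Selp were among those above all 9, and Clec1b lay below. Selp, which encodes P-selectin, had 3.11, 1.99 and 2.5 FPKM in GFP+ HC, against 0.153, 0.0726 and 0.109 in GFP- HC, with 0.872, 0.404 and 0.416 in GFP+ EC and 0.0911, 0.435 and 0.28 in GFP- EC. It passed the filter through GFP+ HC alone (adjusted p = 0.0251 against each). Leaving out any 1 HC library, or GFP+ EC replicate 2 or 3, ended the Selp call. Clec1b, the platelet and endothelial receptor CLEC-2, had 21.9, 30.1 and 26.3 FPKM in GFP+ HC, against 38.8, 58 and 37.2 in GFP- HC, with 32.5, 40.8 and 30.6 in GFP+ EC and 53.5, 61.8 and 55.9 in GFP- EC. Clec1b was lower than in GFP- HC (adjusted p = 0.0371) and GFP- EC (adjusted p = 0.0015), but not called against GFP+ EC. Its call against GFP- HC ended without GFP+ HC replicate 1 or 3 without GFP- HC replicate 1 or 2, or without replicate 1 of either EC population. Of 6 mast cell and basophil genes tested, 3 were higher than in GFP- HC, 2 than in GFP+ EC and 4 than in GFP- EC, and none was lower. Kit, whose protein set the gate between HC and EC, was among those higher in every comparison.

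Many erythroid genes were lower in GFP+ HC than in both GFP- populations, and none passed as lower than in GFP+ EC. Of 31 tested, 1 was higher and 20 lower than in GFP- HC, 3 higher and 14 lower than in GFP- EC, and 3 higher and none lower than in GFP+ EC. The medians were -1.34, -0.15 and -0.54. Hbb-y, an embryonic globin, had 501, 663 and 601 FPKM in GFP+ HC, against 3744, 5485 and 3745 in GFP- HC, with 608, 1391 and 688 in GFP+ EC and 2600.0, 2047 and 4669 in GFP- EC. Both GFP- populations lay above all GFP+ libraries, and single globins share reads with close copies. Sptb, the beta spectrin of the red cell skeleton, had 0.525, 0.597 and 0.509 FPKM in GFP+ HC, against 4.74, 4.06 and 3.06 in GFP- HC, with 0.995, 1.38 and 1.19 in GFP+ EC and 1.83, 1.48 and 1.46 in GFP- EC. Sptb was below all 9 and lower than in GFP- HC (-1.67 ± 0.16, adjusted p = 0.000204) and GFP- EC (adjusted p = 0.00824), while its difference from GFP+ EC did not pass (adjusted p = 0.0618).

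The 4 genes lower in GFP+ HC than in each other population are known from endothelium, matrix and membranes. Unc5b, the netrin receptor of arterial endothelium, had 10.9, 11.2 and 10.9 FPKM in GFP+ HC, against 34.5, 36.9 and 32.7 in GFP- HC, with 45.4, 40.9 and 45.5 in GFP+ EC and 63.7, 53.6 and 45.7 in GFP- EC. The 3 GFP+ HC values were nearly equal, and GFP- HC were the next lowest by mean. Unc5b differed by log2 -1.57 ± 0.11 over GFP- HC, -1.91 ± 0.11 over GFP+ EC and -2.19 ± 0.11 over GFP- EC (adjusted p = 0.000176, held under every alternative run). Esm1, endocan of sprouting endothelial cells, had 1.77, 2.29 and 2.31 FPKM in GFP+ HC, against 4.74, 6.02 and 6.15 in GFP- HC, with 5.62, 4.09 and 7.7 in GFP+ EC and 14.1, 14.7 and 13.9 in GFP- EC (adjusted p = 0.0243). Nid2, the basement membrane protein nidogen-2, had 37.1, 39.6 and 33 FPKM in GFP+ HC, against 58.2, 63.5 and 53.6 in GFP- HC, with 58.6, 53.9 and 61.7 in GFP+ EC and 92.9, 87.4 and 70.1 in GFP- EC (adjusted p = 0.0333). Anxa6, a calcium-dependent membrane-binding annexin, had 124, 119 and 137 FPKM in GFP+ HC, against 170.4, 193 and 178 in GFP- HC, with 171, 175 and 180.04 in GFP+ EC and 245, 203 and 241 in GFP- EC (adjusted p = 0.0494). The calls of Esm1, Nid2 and Anxa6 ended without any 1 of the GFP+ HC libraries, without GFP- HC replicate 2 or 3, and without GFP+ EC replicate 1 or 3. Those of Nid2 and Anxa6 also ended without GFP- HC replicate 1 or GFP+ EC replicate 2, and that of Anxa6 without GFP- EC replicate 1 or 3. The count of 4 was 1, 2 and 1 without GFP+ HC replicate 1, 2 or 3. It was 1 without GFP- HC replicate 2 or 3 or GFP+ EC replicate 1, 2 without GFP+ EC replicate 2 or 3, and 7 without GFP- EC replicate 2.

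Endothelial identity genes were lower in GFP+ HC mainly than in GFP+ EC. Of 32 pan-endothelial genes, 25 were lower and none higher than in GFP+ EC, 8 lower and 5 higher than in GFP- EC, and none lower and 5 higher than in GFP- HC. The medians were 0.17, -0.65 and -0.10, the last being smaller than the shift that scaling to an equal sum gave in that comparison. Cldn5, the tight junction claudin of vessels, and Sox18, a vascular transcription factor, were below all 9. Sox18 had 131, 145 and 132 FPKM in GFP+ HC, against 162, 214 and 151 in GFP- HC, with 200.2, 200.03 and 188 in GFP+ EC and 219, 205 and 185 in GFP- EC. Cldn5 averaged 316 ± 28.5 FPKM in GFP+ HC, against 391 ± 77.8 in GFP- HC, with 523 ± 6.38 in GFP+ EC and 416 ± 31 in GFP- EC. Neither was called against GFP- HC (adjusted p = 0.147 and 0.249). Of 31 arterial and Notch genes, 27 were lower and none higher than in GFP+ EC, 12 lower and 1 higher than in GFP- EC, and 2 lower and 6 higher than in GFP- HC. Their medians were 0.05, -1.45 and -0.49. Dll4, the Notch ligand of arterial endothelium, had 10.9, 14.5 and 12.8 FPKM in GFP+ HC, against 15.8, 22.7 and 15.9 in GFP- HC, with 48.1, 46.6 and 47.4 in GFP+ EC and 46.4, 48.6 and 34.7 in GFP- EC. HC of both kinds lay below all EC, with only a small gap between GFP+ and GFP- HC. Igfbp3, which binds insulin-like growth factors, had 61.9, 95.6 and 68.8 FPKM in GFP+ HC, against 116, 176 and 129.5 in GFP- HC, with 147, 130.03 and 166 in GFP+ EC and 331, 326 and 279 in GFP- EC. Igfbp3 was lower than in each population tested singly, without passing the test against each (adjusted p = 0.0694). Its call against GFP- HC (adjusted p = 0.0168) ended without GFP+ HC replicate 1 or 3, without GFP- HC replicate 2 and when only these 2 populations were fitted.

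Venous and lymphatic genes differed by member. Of 16 tested, 1 was higher and 5 lower than in GFP- HC, 2 higher and 3 lower than in GFP+ EC, and 7 higher and 4 lower than in GFP- EC. Over all genes tested the shares were 2.98% higher and 1.28% lower, 8.21% and 6.09%, and 12.8% and 8.85% in this order. Flt4, the receptor of VEGF-C, had 38.2, 45.4 and 33.1 FPKM in GFP+ HC, against 69.6, 87.2 and 65 in GFP- HC, with 48.7, 45.9 and 47.5 in GFP+ EC and 66.6, 67.1 and 49.7 in GFP- EC. Flt4 was lower than in GFP- HC (adjusted p = 0.00496) and did not pass against GFP+ EC (adjusted p = 0.229). Gja1, the gap junction protein connexin 43, averaged 46.5 ± 3.99 FPKM in GFP+ HC, against 73.7 ± 1.56 in GFP- HC, with 58.3 ± 6.56 in GFP+ EC and 95.9 ± 5.46 in GFP- EC. Of 30 matrix and adhesion genes, 4 were higher and 3 lower than in GFP- HC, 1 higher and 24 lower than in GFP+ EC, and 4 higher and 7 lower than in GFP- EC. Those below all 9 were Col15a1, Itga1, Lama4, Lamc1, Nid2 and Sparc, 6 in all. Lama4, the laminin chain of vessel basement membranes, had 51.3, 56 and 43 FPKM in GFP+ HC, against 67.8, 87 and 73.3 in GFP- HC, with 85.3, 76.7 and 80.9 in GFP+ EC and 107, 109.99 and 87 in GFP- EC. Sparc, a collagen-binding matrix protein, averaged 478 ± 16.1 FPKM in GFP+ HC, against 594 ± 21.5 in GFP- HC, with 923 ± 21 in GFP+ EC and 880.2 ± 149.7 in GFP- EC. Both HC populations lay below every EC library. Of 28 TGF-beta and BMP genes, 1 was lower than in GFP- HC, 9 than in GFP+ EC and 3 than in GFP- EC, where 2 were higher. Of all genes tested 1.28%, 6.09% and 8.85% were lower in this order, and 12.8% were higher than in GFP- EC. Nothing is read from the counts of this list against the GFP- populations. Id3, an inhibitor of DNA-binding factors induced by BMP, had 145, 134 and 164 FPKM in GFP+ HC, against 169, 197 and 178 in GFP- HC, with 265, 336 and 254 in GFP+ EC and 289, 236 and 266 in GFP- EC.

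**Figure D5:**
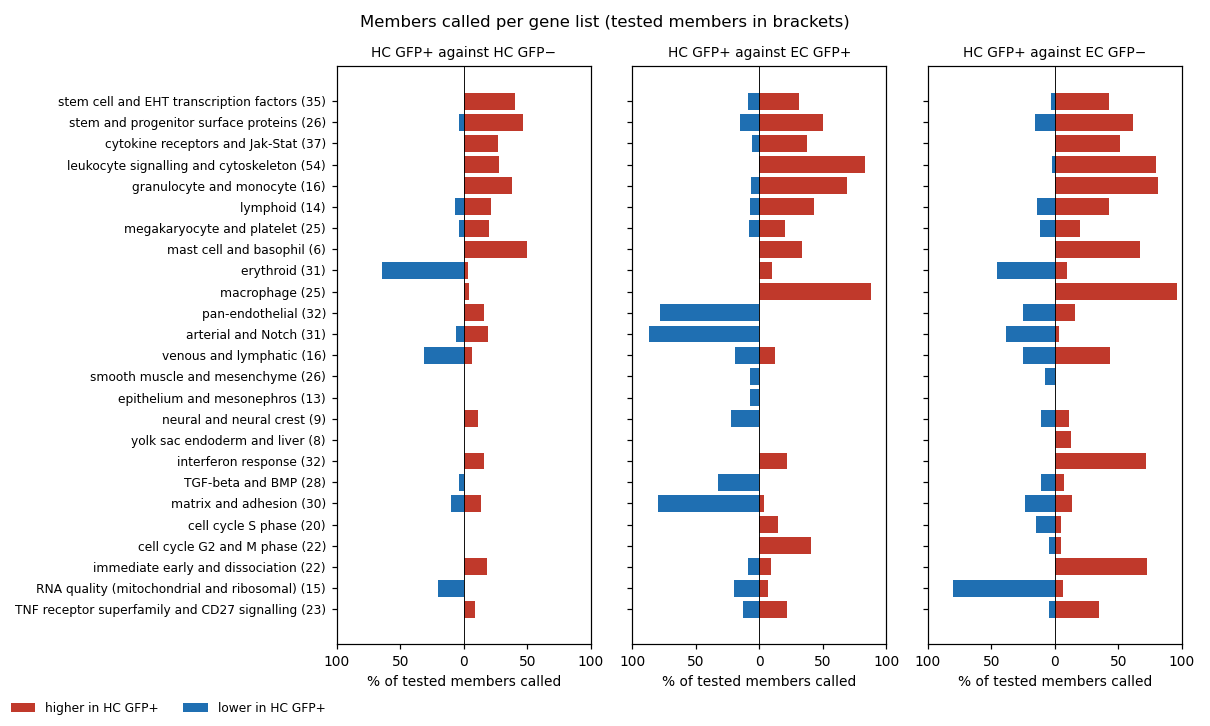
Share of the tested members of each gene list that were called higher (red, to the right) or lower (blue, to the left) in GFP+ HC than in GFP- HC, GFP+ EC and GFP- EC, from limma at an adjusted p of 0.05. Macrophage and leukocyte genes reach high shares against both EC populations, pan-endothelial and arterial genes are mostly lower than in GFP+ EC, and many erythroid genes are lower than in both GFP- populations.

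Interferon response genes were called higher in GFP+ HC most often against GFP- EC. Of 32 tested, 5 were higher than in GFP- HC, 7 than in GFP+ EC and 23 than in GFP- EC, and none was lower. Over all genes tested the shares called higher were 2.98%, 8.21% and 12.8% in this order. At unadjusted p under 0.05 in limma, 21, 15 and 28 of the 32 were higher and none lower. The medians were 0.83, 0.63 and 1.08. H2-K1, Ifitm1, Irf1, Irf9 and Rtp4 lay above all 9. Ifitm1, an interferon-induced membrane protein, had 54.3, 75.2 and 74.1 FPKM in GFP+ HC, against 18, 11 and 21.3 in GFP- HC, with 9.12, 11 and 11.2 in GFP+ EC and 11.4, 2.87 and 17.3 in GFP- EC. Its GFP+ HC values were all above the rest, but it was not called against each (adjusted p = 0.13). H2-K1, a class I antigen gene with close paralogs, had 34.8, 24 and 79.6 FPKM in GFP+ HC, against 20.2, 10.1 and 15.3 in GFP- HC, with 14.2, 17.8 and 17.2 in GFP+ EC and 8.57, 10.9 and 7.77 in GFP- EC. H2-K1 was highest in GFP+ HC replicate 3. Its call against GFP+ EC ended without that library, and without GFP+ HC replicate 1, GFP- HC replicate 3, GFP- EC replicate 1 or any 1 of the GFP+ EC libraries. Irf9, part of the factor that interferon activates, had 15.3, 18.2 and 20.3 FPKM in GFP+ HC, against 9.84, 9.75 and 10.8 in GFP- HC, with 10.3, 10.5 and 14.6 in GFP+ EC and 7.35, 8.14 and 6.58 in GFP- EC.

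The lists of division and of sample handling differed in how many members passed against GFP- HC. With limma none of 22 G2 and M phase genes passed there (6 lower and none higher at unadjusted p under 0.05). Of them 9 were higher than in GFP+ EC, and 1 was higher and 1 lower than in GFP- EC. Mki67, a marker of dividing cells, averaged 25.7 ± 3.2 FPKM in GFP+ HC, against 37.4 ± 3.12 in GFP- HC, with 27.8 ± 2.61 in GFP+ EC and 28.3 ± 5.18 in GFP- EC. Of 20 S phase genes none passed against GFP- HC (2 lower at unadjusted p under 0.05), 3 were higher than in GFP+ EC, and 1 was higher and 3 lower than in GFP- EC. Ccne2, the S phase cyclin E2, was below all 9 with 9.43 ± 0.624 FPKM in GFP+ HC, against 12.9 ± 1.51 in GFP- HC, with 11.6 ± 1.4 in GFP+ EC and 22.7 ± 4.92 in GFP- EC. Of 22 immediate early and dissociation genes, 4 were higher than in GFP- HC (10 higher and none lower at unadjusted p under 0.05), 2 than in GFP+ EC, where 2 were lower, and 16 than in GFP- EC. Their medians were 0.48, 0.37 and 0.74. Of 15 genes in a list of RNA quality, most of them encoded in mitochondria, 3 were lower than in GFP- HC (8 lower and none higher at unadjusted p under 0.05), 3 than in GFP+ EC and 12 than in GFP- EC, and 1 was higher than in GFP+ EC and 1 than in GFP- EC. The medians of this list were -0.41, -0.19 and -1.01. The complex I subunit mt-Nd4 had 685, 681 and 631 FPKM in GFP+ HC, against 908, 1015 and 1052 in GFP- HC, with 1015, 1237 and 801 in GFP+ EC and 1322, 1465 and 1528 in GFP- EC. The part of these RNA differences in the comparisons was not tested.

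Markers of tissue around the arteries were counted in the same way. In the smooth muscle and mesenchyme list none of 26 tested genes passed limma's test against GFP- HC (10 lower and none higher at unadjusted p under 0.05). Of these genes 2 were lower than in GFP+ EC and 2 than in GFP- EC, where 6.09% and 8.85% of all genes tested were lower. The medians of this list were -0.77, 0.17 and -0.50. Lum, the matrix proteoglycan lumican, had 30, 12.6 and 13.2 FPKM in GFP+ HC, against 84.2, 28.7 and 84.9 in GFP- HC, with 16.6, 10.6 and 23.5 in GFP+ EC and 79.8, 27.3 and 110.5 in GFP- EC. Both GFP- populations had a wide spread. Of 13 epithelial and mesonephric genes none passed against GFP- HC or GFP- EC (2 lower and none higher at unadjusted p under 0.05 in each), and 1 was lower than in GFP+ EC. The keratin gene Krt8 averaged 11.5 ± 4.19 FPKM in GFP+ HC, against 23.7 ± 10.4 in GFP- HC, with 13.7 ± 1.18 in GFP+ EC and 28.7 ± 15 in GFP- EC. Of 9 neural genes 1 was higher than in GFP- HC, 2 lower than in GFP+ EC, and 1 higher and 1 lower than in GFP- EC. Of 8 genes of yolk sac endoderm and liver, 1 was higher than in GFP- EC and none passed against GFP- HC (none at unadjusted p under 0.05) or GFP+ EC (1 higher at unadjusted p under 0.05).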

How the data were processed

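Polyadenylated RNA of 12 libraries, 3 per sorted population, was analysed from 1 table of FPKM values per gene symbol that the authors deposited. Groups and replicate numbers came from the sample titles. The submitters' processing notes name Cufflinks, featureCounts, edgeR, DESeq and the build mm9, without roles or versions. How reads were aligned, which annotation and strand were used, and whether libraries were scaled is not given in the sources used here. Since FPKM keeps no read number, no count test was run, and overlapping genes cannot be told apart by strand. An exact 0 may be a failed estimate.

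The log2(FPKM + 1) values were fitted with limma 3.58.1 (R 4.3.3) as 4 group means over all 12 libraries, leaving 8 residual degrees of freedom. An intensity trend, two-sided tests and Benjamini-Hochberg adjustment were used, over the 13278 genes that reached FPKM 1 in 3 or more libraries. Of 33531 genes, 11654 were at 0 in every library. The test against each population used the largest of the 3 p-values. The fit was tested on simulated data with known changes. The labels call the pools independent biological samples, so the spread behind each p-value is that between pools of cells. Alternatives were a pseudocount of 0.1, no filter, mean FPKM of 5 or more, 3 scalings, no trend, a replicate block, fits of 2 groups and each library left out.

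The gene list members and rules were chosen with earlier results of these data known. Genes named were the markers and sort proteins and the 15 with the largest smallest difference called against each population (mean FPKM 5 or more in GFP+ HC, no clone or model name). Further ones were those called lower with mean FPKM of 5 or more in every other population, up to 4 separated members of each list by p, and those nearest the rule's edge. Not every such gene is described.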

Additional observations from a re-analysis of the deposited data

Results flagged for a closer look

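The effect of the reporter differed between HC and EC for 10 of the named genes, by limma's test of (GFP+ HC minus GFP- HC) minus (GFP+ EC minus GFP- EC), adjusted over all genes tested. Among all genes tested this difference was called positive for 25 and negative for 45. A negative value can be a larger fall from GFP- to GFP+ cells in HC, as in Unc5b (-1.574 in HC and -0.289 in EC). Genes that were picked for high values in GFP+ HC are more likely to show a positive difference, so the values are given as a description. The difference was 2.083 for Gpr56 (adjusted p = 0.00638), 2.077 for Myb (adjusted p = 0.00987) and 1.488 for Spn (adjusted p = 0.0134). It was 1.531 for Flt3 (adjusted p = 0.0152), which the filter admitted through GFP+ HC alone, so that its call adds no support. The difference was 1.561 for Dapp1 (adjusted p = 0.0181), 1.714 for Treml2 (adjusted p = 0.0185) and 1.741 for Pstpip1 (adjusted p = 0.0387). For Ltb it was 1.381 (adjusted p = 0.0476), with a change of 0.64 between GFP+ and GFP- HC and -0.74 between GFP+ and GFP- EC. The difference was below 0, at -1.285 for Unc5b (adjusted p = 0.00549) and at -1.422 for Sptb (adjusted p = 0.0193).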

How the results depend on the processing

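Over all alternatives, 5200 of 5548 recomputed values of the named genes kept their direction and side of the threshold, 308 lost a call, 30 gained one and 10 changed sign, none of the 10 being called in either fit. With mean FPKM of 5 or more, where fewer genes were tested, 247 genes were higher than in GFP- HC and 375 lay above all 9. Against each population 11 higher and 1 lower were called there. Esm1, Nid2, Anxa6, Syk, Ikzf1 and Prtn3 were still tested in that fit and lost their call against each population. An equal sum of FPKM gave 3040 genes higher and 544 lower than in GFP- EC and 179 below all 9, and fitting only the 2 groups, with fewer residual degrees of freedom, gave 897 and 521. Against each population a pseudocount of 0.1 gave 15 higher and 2 lower, no filter gave 1 lower, an equal upper quartile 8 lower and no intensity trend 2 lower, and quantile normalization put 437 genes above and 503 below all 9, so that more lay below. The cause was not tested for the filters, the scalings, the trend and the pseudocount. Leaving out 1 library gave 231 to 446 genes higher and 90 to 218 lower than in GFP- HC, 719 to 1186 and 542 to 906 than in GFP+ EC, 1192 to 1745 and 741 to 1469 than in GFP- EC, 17 to 62 and 1 to 7 against each, and 586 to 1143 above and 317 to 635 below all 9.

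The replicate number as a block gave 58 genes higher and 4 lower against each population, 48 and 3 of them among the 57 and 4, and 403 higher and 222 lower than in GFP- HC. Same-numbered libraries of different populations had deviations that correlated between -0.084 and 0.270, with 4 of 18 pairs over 0.1. Pairs with different numbers correlated between -0.221 and 0.218, with 3 of 36 over 0.1. The higher share among same-numbered pairs leans towards pairing but does not show that the numbers pair the samples. The best match had its own number in 20 of 36 cases, and in each population replicate 2 had the lowest sums of macrophage and of mesenchymal genes, a hint from the data and not from the design. Among the named genes, limma with the block did not make the calls against each population of Il17ra (adjusted p = 0.0552), Syk (0.0657), Ptpn22 (0.0845) and Anxa6 (0.0845), nor those of Csf3r against GFP- HC, Cldn5 against GFP- EC and Gja1 against GFP+ EC.

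Differences that changed sign were those of Cdh5 from GFP- EC (0.028 with an equal sum, 0.057 after quantile normalization) and Mki67 from GFP- EC (0.055 with an equal sum, -0.213 to 0.017 with 1 library left out). With 1 library left out, those of Lum (-0.297 to 0.347) and Afp (-1.431 to 0.520) from GFP+ EC changed sign too. FPKM gives no depth, so low values such as those of Flt3, Selp and Ptpn22 have no counting interval.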
